A study of Mus musculus with 4 samples.

Results

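The 7 genes of cytotoxic and type 1 lymphocytes described here were the granzymes *Gzma*, *Gzmb*, *Gzmc* and *Gzmk*, perforin (*Prf1*), the granule membrane protein gene *Nkg7* and interferon gamma (*Ifng*). They were chosen by name, as all entries for these 7 genes among the 3488 genes of a pair of deposited marker tables, the cell type table and the ILC2 subcluster table. The choice was made with earlier results of these data known. Their counts and fold changes beside those of all features are therefore a description. An entry of 1 gene for 1 group of cells is called a listing. The 7 genes held 26 of the 4422 listings of the cell type table, which covered 21 named cell types, and 4 of the 3745 listings of the ILC2 subcluster table, which covered 10 numbered subclusters.

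The cells came from 8-week-old, wild type BALB/c mice that were injected intraperitoneally on each of 5 days, either with PBS or with recombinant IL-33 (rIL-33) at 0.5 µg. Livers and lungs of both treatments gave 4 groups, PBS lung, PBS liver, rIL-33 lung and rIL-33 liver, and each group was 1 droplet-based single-cell library from the pooled tissue of several mice. The sort was meant to keep group 2 innate lymphoid cells (ILC2s, tissue lymphocytes that lack antigen receptors and make type 2 cytokines): it required CD127, Thy1 and ST2 and removed cells with surface CD3e, TCRb, CD11b, CD45R, Ly6G, Ly6c or TER119. T cells, NK cells and basophils were still named by the authors in the sorted material. The authors merged the 4 libraries before the tables were made, so no value could be split by treatment or organ, no value had a replicate. The tables held no depth and no number of cells per group or cluster.

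Granzymes are serine proteases stored in secretory granules, and perforin is the pore-forming protein of the same granules that lets them enter a target cell. NKG7 is a granule membrane protein of NK cells and cytotoxic T cells that takes part in granule release. Interferon gamma is the signature cytokine of type 1 lymphocytes, which include NK cells, ILC1s, cytotoxic T cells and some gamma delta T cells, whereas ILC2s are known for IL-5 and IL-13.

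The genes lie at 5 places of the mouse genome (GRCm38, the build also called mm10; GENCODE M21). *Gzma* (chr13:113093825-113100981, minus strand) and *Gzmk* (chr13:113171608-113225908, minus strand) were separated by 70626 bases. *Gzmb* (chr14:56258838-56262260, minus strand) and *Gzmc* (chr14:56231441-56234656, minus strand) were separated by 24181 bases. *Prf1* (chr10:61297833-61304680, plus strand) and *Ifng* (chr10:118441046-118445892, plus strand) share only their chromosome, and *Nkg7* lies at chr7:43437073-43438249 on the plus strand. Stretches of 89 bases, the length of the transcript read, were taken from the last 500 bases of every protein-coding transcript of these 7 genes. None was found in the transcripts of another gene. Only exact matches on the transcript strand were searched.

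Because several of these genes were listed for the same cell types, the 250 bases before each RefSeq transcript start (GRCm38.p6, all 7 genes matched) were searched on both strands for 5 short motifs of lymphocyte transcription factors. The letters TGTGGT, bound by RUNX factors, were present in 5 of 7 windows and in 4614 of all 32851 RefSeq windows of the same length. The T-box letters GGTGTG were present in 2 of 7 windows, in *Gzmk* and *Nkg7*, and in 16.3% of all windows. The AP-1 letters TGANTCA were present in 1 of 7, *Gzmb*, and in 6.75% of all windows. The STAT letters TTCNNNGAA were present in 2 of 7, *Nkg7* and *Ifng*, and in 7.02% of all windows. The GATA letters AGATAA were present in 0 of 7 and in 9.99% of all windows. No matches overlapped in the windows of the 7 genes. The 5 windows with the RUNX letters are shown because this was the motif that most of the 7 genes shared. They are written 5′ to 3′ on the gene's strand with every motif match in capitals, at chr13:113100982-113101231 (minus), chr14:56262335-56262584 (minus), chr14:56234658-56234907 (minus), chr10:61297586-61297832 (plus) and chr7:43436888-43437072 (plus), none of which overlaps an annotated gene. The windows of *Prf1* and *Nkg7* are given only up to the GENCODE gene start, so the T-box match of *Nkg7* is not shown. A match is a description of letters, not of binding.
Gzma: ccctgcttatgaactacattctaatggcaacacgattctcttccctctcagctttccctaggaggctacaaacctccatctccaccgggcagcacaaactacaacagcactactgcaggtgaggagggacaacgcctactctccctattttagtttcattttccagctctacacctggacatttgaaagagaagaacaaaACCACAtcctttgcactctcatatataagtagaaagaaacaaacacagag
Gzmb: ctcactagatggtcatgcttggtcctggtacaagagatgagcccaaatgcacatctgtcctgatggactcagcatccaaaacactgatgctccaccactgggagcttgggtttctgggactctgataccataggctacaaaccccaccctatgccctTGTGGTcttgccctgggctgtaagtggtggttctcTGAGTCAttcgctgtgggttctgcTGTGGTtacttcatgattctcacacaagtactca
Gzmc: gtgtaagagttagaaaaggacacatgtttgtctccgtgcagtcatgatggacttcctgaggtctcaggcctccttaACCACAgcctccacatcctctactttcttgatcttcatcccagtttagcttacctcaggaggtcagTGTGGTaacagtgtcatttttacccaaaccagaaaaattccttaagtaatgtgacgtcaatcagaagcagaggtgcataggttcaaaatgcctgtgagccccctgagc
Prf1: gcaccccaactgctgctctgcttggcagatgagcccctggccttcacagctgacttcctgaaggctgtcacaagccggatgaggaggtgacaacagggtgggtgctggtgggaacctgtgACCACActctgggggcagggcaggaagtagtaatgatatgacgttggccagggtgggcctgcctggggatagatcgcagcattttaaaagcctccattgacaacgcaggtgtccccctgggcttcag
Nkg7: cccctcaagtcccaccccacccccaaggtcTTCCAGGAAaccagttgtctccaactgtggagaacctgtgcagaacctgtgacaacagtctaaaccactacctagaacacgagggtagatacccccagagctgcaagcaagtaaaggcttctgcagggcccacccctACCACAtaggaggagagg
In these sequences ACCACA is TGTGGT read from the opposite strand, TGAGTCA before *Gzmb* is the AP-1 match, and TTCCAGGAA before *Nkg7* is the STAT match.

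Of the 21 cell types, 9 listed at least 1 of the 7 genes and 12 listed none, the type named ILC2 among them. NK cells and effector CD8 T cells (CD8_Effector) listed 6 of 7 each, ILC1s listed 4 and type I gamma delta T cells (gdT_TypeI) listed 3. Basophils and proliferating cells (named Prolifelation cell) listed 2 each, and CD8_Naive, gdT_Naive and the mixed type ILC1_ILC3 listed 1 each. These counts stand against the percentage of all features that were listed for the same type. The features are the 2000 counted by the p-value adjustment, whereas 1679 genes were listed for at least 1 type. The percentage was 9.85% for NK, 4.7% for CD8_Effector, 7.25% for ILC1 and 7.25% for gdT_TypeI. It was 13.8% for Basophil, 25.6% for Prolifelation cell, 9.9% for CD8_Naive, 7.45% for gdT_Naive and 11.2% for ILC1_ILC3. The median log2 fold change of the 26 listings was 1.16, against 0.60 over all 4422 listings. No listing was tested here, since the types were formed from the same cells and each group was 1 library.

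A listing gives 3 quantities. The first is the log2 fold change of the average value against all other sorted cells. The others are the share of cells inside the type with a value above 0, and that share in all other cells. Where the raw p-value was above 0 and the adjusted one was below its ceiling of 1, the adjusted p-value equalled 2000 times the raw one, which gives the number of features tested. The values may therefore come from a batch-integrated assay, which was not tested. A value above 0 thus need not be a detected transcript, and differences may be of such values rather than of expression. Of the 26 listings, 21 had a higher share inside the type and 5 had a lower one, compared with 16.3% of all listings with a lower share. Where a type did not list a gene, the gene may have been lower, no different, rare or untested, and the table does not tell these apart.

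**Figure D1:**
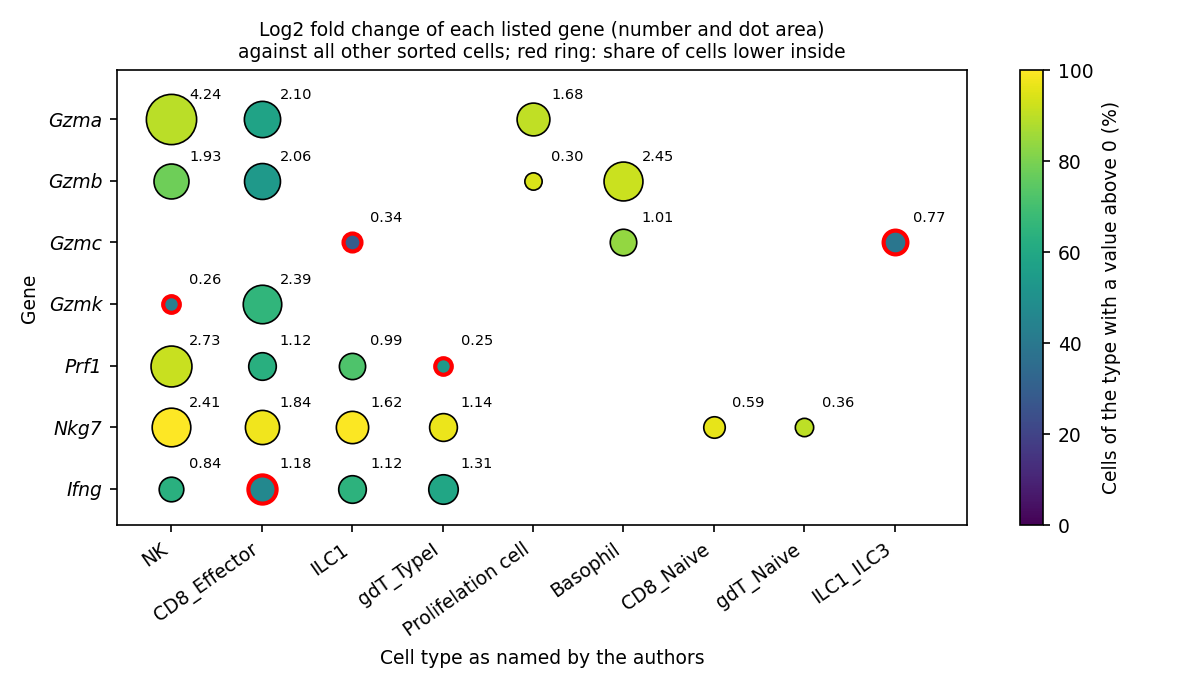
Log2 fold change of each of the 7 genes (vertical axis) in each of the 9 cell types that listed at least 1 of them (horizontal axis), as dot area and number, with the share of cells in the type with a value above 0 as colour (%). A red ring marks the 5 listings with a lower share inside than outside; NK and CD8_Effector have 6 dots each, and the largest value is 4.24 for *Gzma* in NK.

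*Gzma*, which encodes the trypsin-like granzyme A, had the largest log2 fold change of all 197 genes listed for NK, 4.24. A value above 0 was present in 89.6% of NK cells and 39.0% of all other cells. In Prolifelation cell the share was as high, 90.4% against 37.5%, but the log2 fold change was 1.68 and *Gzma* ranked 24 of 513. In CD8_Effector, *Gzma* was above 0 in 58.1% of cells against 40.7%, with a log2 fold change of 2.10 (rank 5 of 94). NK and the proliferating type thus had nearly the same share of *Gzma* cells at different average differences.

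*Gzmb*, which encodes granzyme B, an aspartate-specific protease that activates caspases, was listed for the same 3 types and also for basophils. Its largest log2 fold change was in Basophil, 2.45, with 91.9% of cells against 53.2%. In NK the log2 fold change was 1.93, with 78.1% against 52.7%. In CD8_Effector the average was higher by 2.06 on the log2 scale while the shares were nearly equal, 53.7% against 53.6%. Prolifelation cell showed the opposite arrangement: 94.2% of its cells had a value, against 50.9%, and the log2 fold change was 0.30 (rank 464 of 513). For *Gzmb* the order of types by share and the order by fold change were therefore different.

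*Gzmc*, which encodes granzyme C and lies near *Gzmb* on chromosome 14, shared only Basophil with it. In basophils its log2 fold change was 1.01, with 83.6% of cells against 48.3%. The other listings of *Gzmc* had fewer cells with a value inside the type than outside: 39.3% against 48.8% in ILC1_ILC3 (log2 fold change 0.77, deposited adjusted p-value not under 0.05) and 28.8% against 49.7% in ILC1 (0.34). *Gzmc* and *Gzma* had no type in common, nor did *Gzmc* and *Gzmk*.

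*Gzmk*, which encodes a trypsin-like granzyme known from memory and effector CD8 T cells, had its main listing in CD8_Effector, where its log2 fold change of 2.39 ranked 4 of 94 and 65.5% of cells had a value against 42.9%. It was the granzyme with the largest log2 fold change in that type, ahead of *Gzma* and *Gzmb*. In NK its log2 fold change was 0.26, close to the smallest value the table holds (0.25), and the shares were 42.3% inside and 43.0% outside. *Gzma* and *Gzmk*, the pair from chromosome 13, were thus both listed for NK and CD8_Effector but stood at opposite ends of the NK list, at ranks 1 and 191 of 197.

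**Figure D2:**
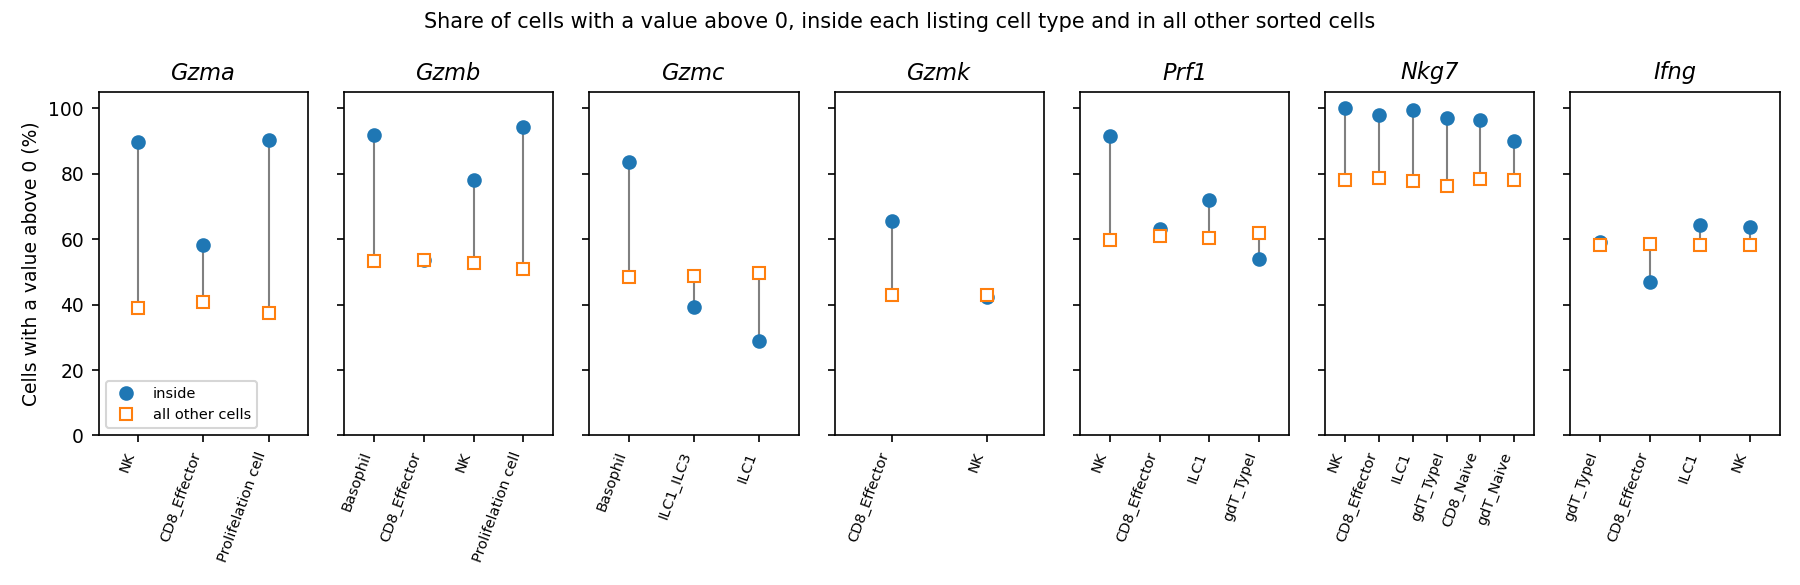
Share of cells with a value above 0 (vertical axis, %), inside each listing cell type (filled circles) and in all other sorted cells (open squares), with 1 panel per gene and types on the horizontal axis in order of log2 fold change. *Nkg7* is above 76% outside as well as inside its 6 types, whereas *Gzma* goes from 39.0% outside to 89.6% inside NK.

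*Prf1* was listed for NK, CD8_Effector, ILC1 and gdT_TypeI. In NK its log2 fold change was 2.73 (rank 4 of 197) and 91.5% of cells had a value against 59.9%. In ILC1 the log2 fold change was 0.99, with 71.9% against 60.5%, and in CD8_Effector it was 1.12, with 63.1% against 61.0%. In gdT_TypeI it was 0.25, at the limit of the table, and fewer cells had a value than elsewhere (53.9% against 62.0%). By log2 fold change, both *Prf1* and *Gzma* stood highest in NK. Among the types that listed *Gzma*, the highest share of *Gzma* cells was in Prolifelation cell, which did not list *Prf1*.

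*Nkg7* was listed for the most types, 6, and a higher share inside held in each of them. Its log2 fold change was 2.41 in NK, 1.84 in CD8_Effector, 1.62 in ILC1, 1.14 in gdT_TypeI, 0.59 in CD8_Naive and 0.36 in gdT_Naive. The share of cells with a value was 100% in NK, 99.6% in ILC1, 98.0% in CD8_Effector, 97.2% in gdT_TypeI, 96.4% in CD8_Naive and 90.0% in gdT_Naive, against 76.3% to 78.7% of all other cells. Within both the CD8 and the gamma delta pair, the type named naive had the lower fold change. No difference between types was tested, since each value is a single number without a spread between samples.

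*Ifng* was listed for exactly the 4 types that listed *Prf1*, and all 4 also listed *Nkg7*, but the order of its fold changes differed. Its log2 fold change was largest in gdT_TypeI (1.31), followed by CD8_Effector (1.18), ILC1 (1.12) and NK (0.84), whereas *Prf1* was largest in NK and smallest in gdT_TypeI. The shares of cells differed little, with 59.2% against 58.3% in gdT_TypeI, 64.4% against 58.1% in ILC1 and 63.6% against 58.2% in NK. In CD8_Effector the share was lower inside, 46.8% against 58.5%, and the deposited adjusted p-value was not under 0.05.

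The relative sizes of the types were solved from the deposited shares, which allowed the share of each gene to be computed for all sorted cells and for the types that did not list it. *Nkg7* was above 0 in 78.8% of all cells, *Prf1* in 61.0%, *Ifng* in 58.4%, *Gzmb* in 53.6%, *Gzmc* in 48.7%, *Gzmk* in 43.0% and *Gzma* in 40.8%. The mean share over the types without a listing was 71.4% for *Nkg7*, 60.0% for *Prf1*, 57.8% for *Ifng*, 49.3% for *Gzmb*, 49.4% for *Gzmc*, 42.9% for *Gzmk* and 35.2% for *Gzma*. *Gzma* therefore had the lowest share where it was not listed, and for *Gzmc* the mean without a listing was no lower than that of all cells. NK held 3.66% of all cells and 8.03% of the cells with a *Gzma* value, and Prolifelation cell held 6.23% and 13.8%. The type ILC2, 43.2% of all cells, must have had an *Nkg7* value in at least 53.4% of its cells, although *Nkg7* was not listed for it.

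The names of the types were checked against marker lists. NK listed 9 of 12 NK cell and ILC1 markers and 0 of 12 T cell markers, and ILC1 listed 8 and 0. CD8_Effector and gdT_TypeI each listed 8 of 12 T cell markers, with *Cd8a* and *Cd8b1* in the first and *Trdc* in the second, although surface CD3e and TCRb had been used to remove cells. They also listed 3 and 6 NK cell and ILC1 markers, of which 1 and 3 had a higher share of cells inside the type. Basophil listed 10 of 11 basophil and mast cell markers, and Prolifelation cell listed 10 of 10 proliferation markers with 0 of 12 T cell and 2 of 12 NK cell and ILC1 markers (*Cd7* and *Eomes*). Their part in the listings of the 7 genes was not tested.

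Other genes of the granule and interferon gamma pathways were followed by lists chosen for their roles. Of the 6 other granzymes searched, *Gzmm* was listed, for gdT_TypeI alone (log2 fold change 0.63, 60.0% against 58.8% of cells), and the other 5 were listed in neither table. All 4 chemokines on these lists were listed for NK: *Ccl5* (2.66), *Xcl1* (1.57), *Ccl4* (1.14) and *Ccl3* (0.78). Among chemokines, *Ccl5* also had the largest log2 fold change in CD8_Effector (3.15) and gdT_TypeI (2.22), and *Xcl1* in ILC1 (2.93). Basophils, the type with *Gzmb* and *Gzmc*, listed *Ccl3* at 7.19 and *Ccl4* at 7.10, and also the type 2 cytokines *Il4* (1.42) and *Il13* (1.07).

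Inhibitors and regulators of these genes varied between the same types. Of 6 genes of serpins, a family of protease inhibitors in which SERPINB9 is known to block granzyme B, NK listed *Serpinb9* (2.09), *Serpinb6b* (2.04) and *Serpinb9b* (1.01), ILC1 listed 3, gdT_TypeI listed 2 and CD8_Effector listed 0. Of 16 type 1 transcription factors and cytokine receptors, 10 were listed for any type. NK listed 9, led by *Irf8* (2.58), *Eomes* (2.30) and *Il2rb* (1.64). ILC1 listed 6, gdT_TypeI listed 5 and CD8_Effector listed 4, led by *Zeb2* (1.93). *Fasl*, a death ligand, was listed for the same 4 types as *Prf1* and *Ifng*, at 1.67 in NK, 1.32 in ILC1, 1.05 in gdT_TypeI and 0.97 in CD8_Effector. Its share of cells was lower inside in CD8_Effector alone, 55.7% against 68.3%. Of 21 genes of the interferon gamma receptor and response, 13 were listed for any type, and the others may not have been tested. NK listed 0, ILC1 and CD8_Effector 1 each, gdT_TypeI 5 and gdT_Naive 8, although gdT_Naive did not list *Ifng*. All 13 listings of gdT_TypeI and gdT_Naive had a lower share of cells inside the type, as had 27.6% and 74.5% of all listings of these types, with *Irf1* in gdT_Naive, for example, at a log2 fold change of 0.75 and 60.1% against 68.6%.

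**Figure D3:**
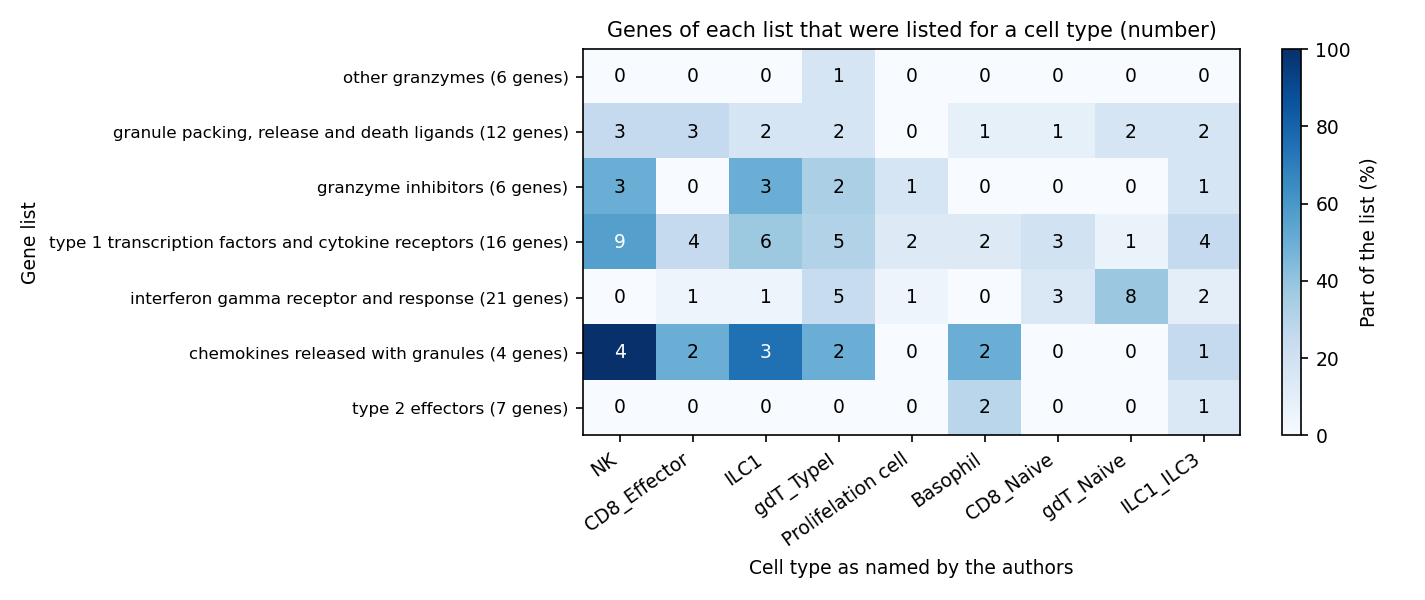
Number of genes of each of 7 gene lists (vertical axis, with the size of the list) that were listed for each of the 9 cell types (horizontal axis), with the percentage of the list as colour. NK has 9 of 16 type 1 regulators and 4 of 4 chemokines but 0 of 21 interferon gamma receptor and response genes.

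The genes with the pattern most like each of the 7 were named by Pearson r between log2 fold changes over the 21 types, with 0 where a gene was not listed. The types share libraries and their comparison groups, so r is a description. For *Gzma* these were *Prf1* (0.87), the NK cell receptor gene *Klra3* (0.86) and *Eomes* (0.85). For *Nkg7* they were *Klrd1* (0.97), *Fasl* (0.96) and *Klrc2* (0.94), and for *Ifng* they were *Klrc2* (0.97), *Gimap7* (0.96) and *Ccl5* (0.95). For *Prf1* they included *Klre1* (0.92) and *Ctla2b* (0.92). *Gzmb* was most like *Cma1* (0.81), *Ctsd* (0.81) and *Sytl3* (0.80). *Cma1* was listed for 2 types, and in Basophil it had a lower share inside, 12.8% against 48.9%. *Gzmc* was most like *Gda* (0.93), *Dgat1* (0.92) and *Anxa1* (0.89), of which *Gda* was listed for 2 types and *Dgat1* for 3. *Gzmk* was most like *Cenpv* (0.99), *Cx3cr1* (0.97) and *Stard10* (0.96). With *Gzmk* listed for 2 of 21 types, *Cenpv* for 1 and *Cx3cr1* and *Stard10* for 2 each, the r values of *Gzmk* rest almost wholly on CD8_Effector. Among the 7 genes themselves, *Prf1* and *Nkg7* had an r of 0.91, whereas *Gzmc* had values below 0 with *Gzma* (-0.14), *Gzmk*, *Prf1*, *Nkg7* and *Ifng*, and 0.42 with *Gzmb*.

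Within the ILC2s, *Nkg7* and *Gzma* were listed and the other 5 genes were not. *Nkg7* was listed for subclusters 4, 5 and 7 and *Gzma* for subcluster 4 alone, so 7 of 10 subclusters listed none of the genes. Of about 14354 features (the median ratio of adjusted to raw p-values), 5.59% were listed for subcluster 4, 6.97% for subcluster 5 and 1.88% for subcluster 7. These values are on another scale than those of the cell type table, with an *Nkg7* value above 0 in 13.4% of the ILC2s.

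In subcluster 4, *Nkg7* had a log2 fold change of 1.77 (rank 3 of 802 genes), with a value in 30.5% of cells against 11.7% of all other ILC2s. *Gzma* had a log2 fold change of 1.53 (rank 6), with 25.8% against 9.70%. Both genes were thus among the 6 with the largest fold changes of this subcluster, beside *Stmn1* (2.34) and *Ccl5* (1.79, with 62.6% against 41.8%). Subcluster 4 listed 7 of 10 proliferation markers, among them *Top2a* (71.5% against 26.2% of cells) and *Mki67* (54.7% against 15.0%), and 0 of 12 T cell and 0 of 12 NK cell and ILC1 markers. It also listed the cytokine receptor gene *Il2rb* (0.97) and the type 2 cytokine gene *Il13* (0.56). The proliferation markers were listed beside both genes in this subcluster, whereas subclusters 5 and 7 listed *Nkg7* with 0 of 10 such markers. Their part in the listings was not tested. *Gzma* was thus listed for a group with proliferation markers in both tables, and whether these groups hold any of the same cells was not tested.

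In subcluster 7, *Nkg7* had its highest share among the subclusters that listed it, 40.0% against 13%. Its log2 fold change there was 1.38 (rank 8 of 270). This subcluster listed the ILC2 cytokine genes *Areg* (1.97), *Il13* (1.32) and *Il5* (1.10), the transcription factor gene *Runx3* (0.62), and 2 of 12 T cell markers, *Tcrg-C1* (42.0% against 25.8% of cells) and *Trbc1* (86.5% against 79.5%). It listed 0 of 12 NK cell and ILC1 markers and 0 of 10 proliferation markers. Only 1 of the 12 NK cell and ILC1 markers, *Tnfsf10*, was listed for any subcluster, so the counts of 0 in subclusters 4 and 7 say little about such cells.

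In subcluster 5, *Nkg7* had a log2 fold change of 1.37 (rank 36 of 1000), with 26.3% of cells against 12.9%. This subcluster stood apart in its listings, 978 of 1000 of which had a lower share of cells inside than outside, and *Nkg7* was 1 of the 22 with a higher share. A gene above 0 in under 25% of all other ILC2s, as *Nkg7*, *Trdc* and *Cd3e* were, could be listed only with a higher share inside, so the listing limit fixed the place of these 3 among the 22. The T cell genes *Trdc* (25.6% against 7%, log2 fold change 2.52), *Cd3e* (32.0% against 4.70%, 2.36), *Cd3g* (39.5% against 32.6%, 1.20), *Lck* and *Cd28* were also among these 22, as was *Cxcr3*, a chemokine receptor gene of type 1 lymphocytes (these 22 were looked at after their values were seen). The 22 also held the heat shock genes *Hspa1a* and *Hspa1b*, the immediate early gene *Egr1* and *Rhob*, and their part in the listing of *Nkg7* was not tested. Of the T cell marker list, 4 of 12 were listed here. The fourth, *Trbc1*, had a log2 fold change of 0.88 but a lower share inside, 45.0% against 81.0%. The part of these markers in the listing of *Nkg7* was not tested.

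**Figure D4:**
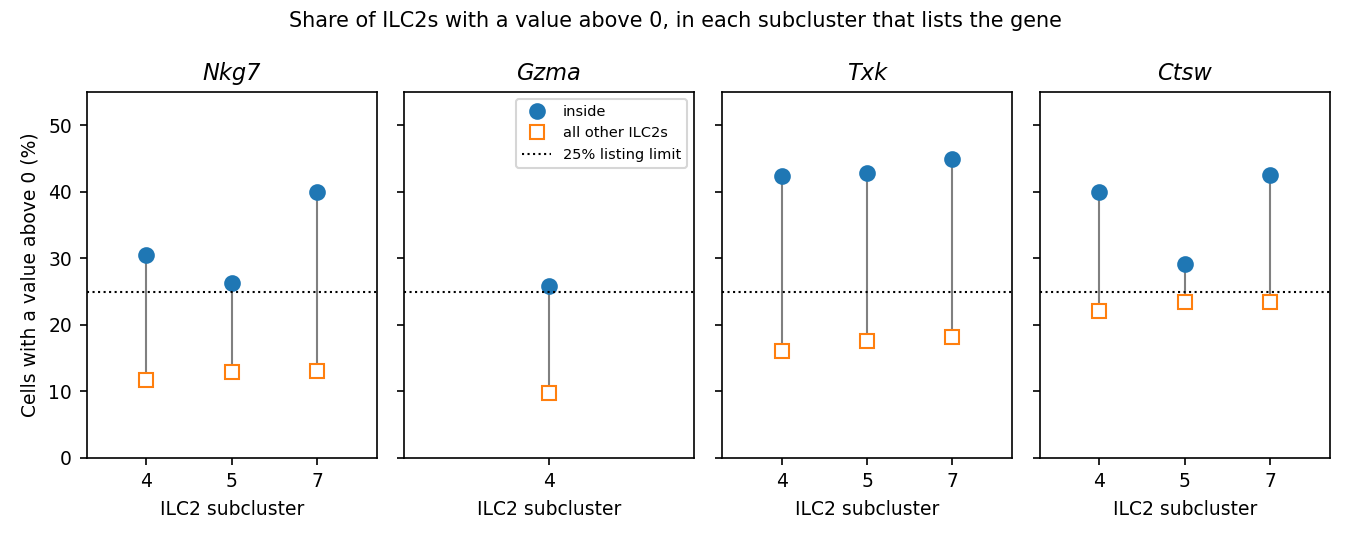
Share of ILC2s with a value above 0 (vertical axis, %) in each subcluster that listed the gene (horizontal axis), inside the subcluster (filled circles) and in all other ILC2s (open squares), for *Nkg7*, *Gzma*, *Txk* and *Ctsw*. The dotted line is the 25% listing limit; *Gzma* in subcluster 4 (25.8%) and *Nkg7* in subcluster 5 (26.3%) lie just above it.

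*Nkg7* shared its exact set of subclusters with 4 other genes, among them *Ctsw*, a protease gene of cytotoxic lymphocytes, and *Txk*, a kinase gene of T and NK cells (this pair was picked after the values were seen). Both were above 0 in under 25% of all other ILC2s, so that, as for *Nkg7*, the listing limit allowed only a higher share inside. *Txk* was above 0 in 42.4%, 42.8% and 45.0% of the cells of subclusters 4, 5 and 7, against 16.1%, 17.5% and 18.1% of all other ILC2s. *Ctsw* was above 0 in 40.0%, 29.2% and 42.5%, against 22.1%, 23.5% and 23.4%. The other genes of this set, *Snhg3* and *Syncrip*, had the highest r with *Nkg7* over the 10 subclusters (0.990 and 0.999), followed by *Smarcc1* (0.815), but a lower share inside subcluster 5, where *Syncrip* was above 0 in 23.5% of cells against 59.6%.

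Most ILC2s with a value for these genes lay outside the listing subclusters. Subcluster 4, 9.23% of the ILC2s by the solved sizes, held 21.3% of those with a *Gzma* value and 20.99% of those with an *Nkg7* value. Subclusters 4, 5 and 7 together were 14.5% of the ILC2s and held 32.8% of those with an *Nkg7* value. The mean share over the subclusters without a listing was 10.5% for *Nkg7* and 9.70% for *Gzma*. For comparison, the 6 T cell markers of the table ranged widely over the ILC2s, with a value above 0 in 5.76% for *Cd3e*, whose protein the sort selected against, 7.72% for *Trdc*, 26.0% for *Tcrg-C1*, 32.9% for *Cd3g*, 79.6% for *Trbc1* and 81.8% for *Trbc2*. Free RNA can give such shares in cells that do not express a gene, and without counts or depth the shares outside the listing subclusters could not be told apart from that background.

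The absence of the other 5 genes from the ILC2 subcluster table has a narrow meaning. A listing needed a log2 fold change of at least 0.25 and a share of at least 25% on one side, so *Gzmb*, *Gzmc*, *Gzmk*, *Prf1* and *Ifng* may be higher in a subcluster and still be absent where few of its cells have a value. None of the 6 other granzymes was listed for a subcluster, and of the 4 chemokines *Ccl5* alone was, for subclusters 1, 4 and 8. Among serpins, *Serpinb6a* was listed for subclusters 2, 4, 6, 8 and 9 and *Serpina3g* for 2 and 8.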

How the data were processed

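Single cells of 4 libraries, 1 per group as given by the labels, were measured by 3' single-cell RNA sequencing. The authors aligned reads to mm10 with Cell Ranger, removed doublets and dead cells by flow cytometry, excluded cells with few genes, scaled and log transformed counts, clustered with Seurat, and named cell types from markers. The deposited tables hold log2 fold changes, the fraction of cells with a value above 0 inside and outside each cluster, and p-values over cells. These p-values served only as a filter, since cells are not replicates, and no test was run. All deposited columns are comparisons made by the authors on merged libraries, and 0 columns of values for a sample were left unused.

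Cluster sizes were solved by least squares (numpy 2.4.6, pandas 2.3.3, Python 3.11.15) from both fractions over genes listed for at least 2 clusters, and were tested on simulated data. The sizes summed to 100.1% and 100.2%, and the shares had a root mean square residual of 0.0233 and 0.0204 percentage points. Named were the 7 genes wherever listed, the 3 genes most like each, defining markers and up to 3 leading genes of each list, some of which are not reported here. Members and lists were chosen with earlier results of these data known. Motifs were counted in RefSeq windows. Alternatives changed which listings counted, the genes behind the sizes and the measure of likeness. The depth was unknown, so no interval was given.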

Additional observations from a re-analysis of the deposited data

How the results depend on the processing

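The 26 listings in the cell type table fell to 17 when the log2 fold change had to reach 1 and to 16 with a share at least 10 percentage points above that of all other cells. The 4 listings in ILC2 subclusters stayed at 4 under each alternative run, but the alternatives on shares could not have removed any, since all 4 passed the 25% listing limit only inside the subcluster and lay at 9.70% to 13% outside. The number of types or subclusters listing a single gene stayed within 1.5 times in 35 of 45 alternatives. *Gzmc* kept 1 type and *Gzmk* 1 where a higher share inside was required, and *Ifng* kept 0 where that difference had to be at least 10 percentage points. Mean shares without a listing moved by at most 0.0144 percentage points over 27 alternatives. The genes most like each member depended on the measure: of 24 named, 5 were also named by the share of clusters listed in common and 2 by the correlation of share differences. No paired analysis was possible because the tables pool all libraries and each group has 1 library. For the same reason no replicate could be left out, treatment and organ could not be compared, and depth, free RNA and integration could not be measured.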
